A study of Mus musculus with 23 samples.

Results

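Aminoacyl-tRNA synthetases, the enzymes that attach each amino acid to its transfer RNA, were followed in mouse CD4+ T cells as a list of 38 named genes. The list held 22 genes of the cytosolic machinery, with the scaffold genes Aimp1 and Aimp2 among them, and 16 genes of mitochondrial enzymes. All 38 were found in the deposited count table of 53379 genes by their symbols (Mars1 stands there under its older symbol Mars), and all 38 were among the 16882 genes that passed the filter on low counts. In single libraries they collected 76 reads (Wars2) to 61534 reads (Lars2).

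The cells were splenic T cells of C57BL/6 mice, sorted for CD45, CD3 and CD4 without CD8, and held in culture for 72 h with IL-2 at 30 IU/ml in every culture. They were stimulated with antibodies against CD3 and CD28 or left unstimulated, each with 5 mM niacin or without niacin, and came from mice labelled Gpr109a-/- (knockout of the niacin receptor gene, now named Hcar2) or wild type. This made 8 groups and 23 libraries: 12 stimulated and 11 unstimulated, with 3 libraries in each group except 1 (unstimulated, knockout label, niacin) of 2 libraries. The labels do not say whether libraries of a group came from separate mice, so the p-values measure the spread between libraries, which may be technical. Total counts ran from 13205565 to 30090018 (median 24007159). Hcar2 itself went against the labels, with 0 to 32 reads in the 11 knockout-labelled libraries and 0 or 1 read in the 12 wild-type-labelled ones, so genotype is given as labelled throughout. Library 3 of the unstimulated group under the knockout label had the lowest total, the next lowest being 20604050, and stood apart in many synthetase genes (Vars 1112 CPM against 580.0 and 439 in libraries 1 and 2 of its group; Rars 23.5 CPM against 94.1 and 77.4). The column header of this library lacks the tag jax that the headers of all other libraries carry, and what the tag marks is not stated. Results that rest on this library are given with and without it.

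Of the sorting markers, the 8 T cell genes (Cd3e and Cd4 among them) summed to 4030 to 7283 CPM in each library (CPM are counts scaled to the library's total after TMM correction). The CD8 genes Cd8a and Cd8b1 summed to 7.88 to 29.2 CPM. B cell genes summed to 417 to 1109 CPM, nearly all of it Ighm (408 to 1103 CPM), with none of the other 8 above 7.14 CPM and Pax5 at 0 in 21 libraries. Myeloid genes summed to 50.2 to 137 CPM, with none but Cst3 above 6.60 CPM and Csf1r at 0 in 19 libraries. Erythroid and platelet genes summed to 0 to 5.82 CPM. NK genes summed to 74.7 to 115 CPM in stimulated libraries and 12.9 to 44.7 CPM in unstimulated ones. Eomes made up 90.0% to 96.8% of that sum in stimulated libraries and 19.1% to 67.4% in unstimulated ones, while Klra8 was at 0 in all 23 libraries and Ncr1 in 11. Their part in the results below was not tested.

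Apart from Eprs, which serves both glutamate and proline, each synthetase recognises 1 amino acid and its matching transfer RNAs. The charged transfer RNA is then delivered to the ribosome. Cytosolic and mitochondrial ribosomes use separate sets of enzymes, mostly from separate nuclear genes. In the cytosol, several of these enzymes sit together in a multi-synthetase complex held by scaffold proteins, and the others act as free enzymes. T cells activated through the antigen receptor grow and divide, which raises their protein synthesis. ATF4, a transcription factor that is induced when amino acids run short or protein synthesis is disturbed, and MYC are both known to act on synthetase genes.

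Promoter windows from RefSeq (mouse build GRCm38.p6, 250 bases before to 50 after the transcription start) were matched by symbol to 29 of the 38 genes, 15 cytosolic and 14 mitochondrial. They were searched on both strands for TGATGNAA, the core of the element bound by ATF4 together with C/EBP proteins, and for CACGTG, the E-box bound by MYC with MAX. TGATGNAA occurred in 5 of the 15 cytosolic genes (33.3%), Aars, Gars, Iars, Tars and Yars, in 0 of the 14 mitochondrial ones, and in 3.97% of 32851 windows of all genes. Its stricter form TGATGCAA, which is contained in TGATGNAA, was in 4 of the 15 (all of these but Gars), in 0 of 14, and in 0.895% of all windows. CACGTG occurred in 4 of the 15 cytosolic genes (Aars, Farsb, Iars and Tars), in 1 of the 14 mitochondrial ones (Ears2), and in 7.15% of all windows. A match describes letters in the window and is not a measured binding site. Cars, Hars, Lars, Nars, Rars, Vars, Wars, Hars2 and Pars2 had no matched window and were not searched. The windows of the 5 genes with TGATGNAA, with that of Ears2 as the mitochondrial gene holding an E-box, follow because their transcripts are described below. They are given 5′ to 3′ on the gene's strand, and capitals mark TGATGNAA and CACGTG on either strand (TTGCATCA and TTTCATCA are the reverse-strand forms).
Yars (chr4:129189653-129189952, plus strand): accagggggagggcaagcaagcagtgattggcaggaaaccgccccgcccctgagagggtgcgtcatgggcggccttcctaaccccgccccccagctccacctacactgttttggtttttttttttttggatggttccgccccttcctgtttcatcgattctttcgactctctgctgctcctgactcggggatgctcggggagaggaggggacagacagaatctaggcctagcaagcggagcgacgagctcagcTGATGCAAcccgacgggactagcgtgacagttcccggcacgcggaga
Gars (chr6:55037751-55038050, plus strand): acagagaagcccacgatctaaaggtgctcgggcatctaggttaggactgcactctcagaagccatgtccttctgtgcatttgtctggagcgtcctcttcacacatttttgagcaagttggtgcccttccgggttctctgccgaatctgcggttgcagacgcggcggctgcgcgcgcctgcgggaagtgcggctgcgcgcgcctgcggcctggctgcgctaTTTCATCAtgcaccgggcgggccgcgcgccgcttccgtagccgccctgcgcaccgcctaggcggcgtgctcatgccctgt
Iars (chr13:49681880-49682179, plus strand): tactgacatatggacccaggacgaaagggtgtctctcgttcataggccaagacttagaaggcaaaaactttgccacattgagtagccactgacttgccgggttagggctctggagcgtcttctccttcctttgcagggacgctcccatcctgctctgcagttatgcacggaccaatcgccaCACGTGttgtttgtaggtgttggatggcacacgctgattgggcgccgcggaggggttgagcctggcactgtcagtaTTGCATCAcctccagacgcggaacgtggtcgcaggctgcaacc
Tars (chr15:11399609-11399908, minus strand): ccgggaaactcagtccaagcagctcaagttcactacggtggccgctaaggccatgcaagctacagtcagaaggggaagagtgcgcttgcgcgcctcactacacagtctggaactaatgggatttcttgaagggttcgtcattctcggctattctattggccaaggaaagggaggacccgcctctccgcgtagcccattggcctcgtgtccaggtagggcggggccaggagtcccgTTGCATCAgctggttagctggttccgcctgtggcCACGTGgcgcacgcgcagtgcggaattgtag
Aars (chr8:111033592-111033891, plus strand): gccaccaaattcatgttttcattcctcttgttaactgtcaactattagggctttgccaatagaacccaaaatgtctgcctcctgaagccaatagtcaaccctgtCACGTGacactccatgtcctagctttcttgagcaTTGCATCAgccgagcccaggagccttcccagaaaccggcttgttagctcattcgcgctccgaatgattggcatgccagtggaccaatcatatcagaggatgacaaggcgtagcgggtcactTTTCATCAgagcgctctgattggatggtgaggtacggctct
Ears2 (chr7:122067037-122067336, minus strand): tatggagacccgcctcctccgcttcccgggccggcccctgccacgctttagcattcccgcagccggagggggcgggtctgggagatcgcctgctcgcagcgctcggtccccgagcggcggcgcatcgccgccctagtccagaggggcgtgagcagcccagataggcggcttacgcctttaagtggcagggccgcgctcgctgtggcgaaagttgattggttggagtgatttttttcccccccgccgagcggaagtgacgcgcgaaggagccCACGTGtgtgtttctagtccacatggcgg

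Levels between genes were compared as CPM per kilobase of exon, with the exon lengths of the deposited table. Vars, for valine, and Gars, for glycine, led the cytosolic set in stimulated cells, and the mitochondrial leucine enzyme Lars2 stood beside them. In stimulated wild-type-labelled cells Vars averaged 210.2 ± 3.44, Lars2 204 ± 32.8 and Gars 165 ± 13.1 CPM per kilobase (SD, n = 3). Vars and Lars2 lay within their spread of each other there. Mars2 and Wars2, the mitochondrial enzymes for methionine and tryptophan, were lowest, at 1.05 ± 0.200 and 1.64 ± 0.482. The order shifted with stimulation for a few genes. Cars, for cysteine, was number 17 of 38 by level per kilobase in stimulated wild-type-labelled cells, against number 29 in unstimulated ones. Yars, for tyrosine, was number 14, against 21 in unstimulated cells. Wars, for tryptophan, was number 10, against 3 in unstimulated cells.

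**Figure D1:**
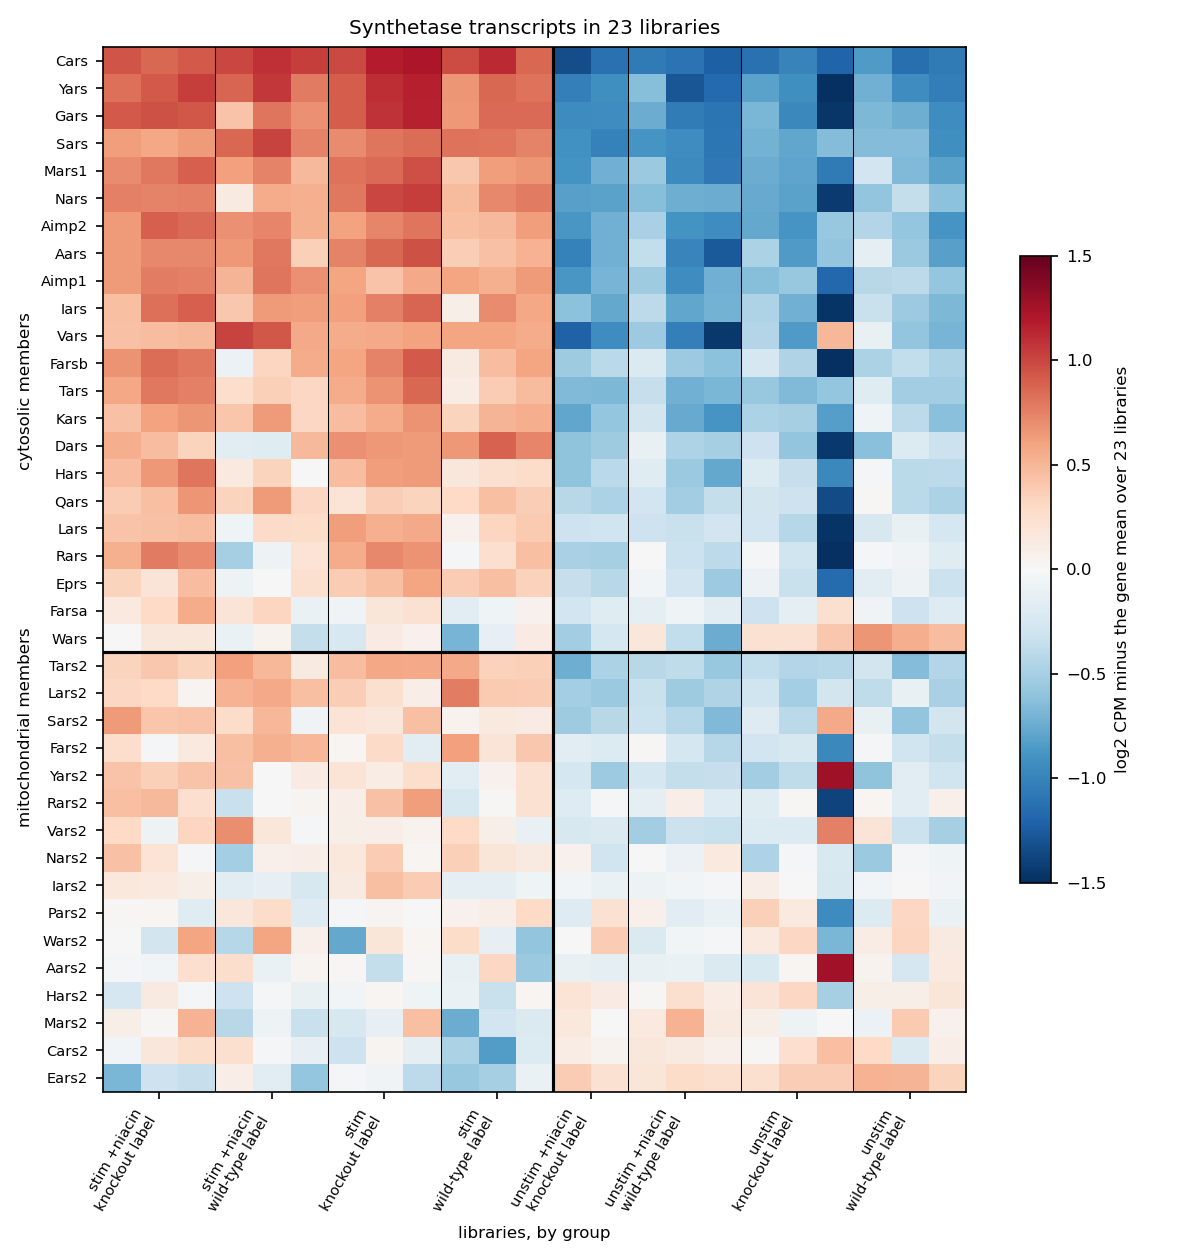
Level of each synthetase gene in each of the 23 libraries, as log2 CPM minus that gene's mean over the 23 libraries (rows: 22 cytosolic genes above the line, 16 mitochondrial genes below; columns: libraries by group, stimulated left of the thick line). Nearly all cytosolic rows are red in stimulated and blue in unstimulated libraries, while the mitochondrial rows are mixed, and the third unstimulated knockout-labelled library stands apart.

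Stimulated cells were compared with unstimulated cells under each label, with and without niacin. Most cytosolic synthetase transcripts rose in all 4 comparisons, while the mitochondrial ones split. With niacin under the knockout label, 21 of 22 cytosolic genes were higher and 0 lower (24.5% of all genes tested were called higher and 25.3% lower). With niacin under the wild-type label, 17 were higher and 0 lower (26% and 26.6% of all genes). Without niacin, 20 were higher and 0 lower under the knockout label (25.2% and 27.5% of all genes), and 18 were higher and 1 lower under the wild-type label (23.4% and 21.7% of all genes). The test was edgeR's quasi-likelihood test at a Benjamini-Hochberg adjusted p under 0.05, over all 16882 genes.

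The 16 mitochondrial genes gave 3 higher and 1 lower with niacin under the knockout label, 5 higher and 2 lower with niacin under the wild-type label, 5 higher and 1 lower without it under the knockout label, and 3 higher and 3 lower without it under the wild-type label. The share called higher was near that of all genes, and the share called lower was below it. Their median log2 fold changes were 0.26, 0.18, 0.04 and 0.09 in that order of comparisons. The cytosolic medians were 1.40, 1.10, 1.33 and 0.96, and the medians of all genes -0.07, -0.10, -0.13 and -0.07. With RLE in place of TMM factors, the mitochondrial median under the knockout label without niacin turned to -0.04, and without unstimulated knockout-labelled library 3 it was 0.29. The cytosolic count called higher there was 20 with that library and 21 without it, where 54.4% of all genes were called in either direction, and the cytosolic median 1.33 and 1.17. The mitochondrial count called higher there was 5 with that library and 6 without it, with 4 genes shared. CPM are shares of a library's counts, so a change in the RNA content of a cell is not measured, and in such bulk samples fewer cells of a type and less RNA per cell cannot be told apart.

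In the mean of the 4 comparisons, which was added after the data had been seen, 21 of 22 cytosolic genes were higher and 0 lower, against 8 of 16 mitochondrial genes higher and 3 lower (35.3% of all genes were called higher and 40.8% lower). With each library left out in turn, all 21 cytosolic calls held in the 23 fits. So did 5 of the 8 higher and 2 of the 3 lower mitochondrial calls. Hars2 (-0.20), called lower, kept its call in 5 of the 23. In all 4 single comparisons 16 cytosolic genes were called higher. The other 6 were Dars, Eprs and Lars (called in 3 of the 4), Rars (in 2), Farsa (in 1) and Wars (in 0). Lars2 and Tars2 were the mitochondrial genes called higher in all 4, Ears2 was called lower in all 4, and 6 mitochondrial genes were called in none. Of all genes tested, 16.1% were called higher in all 4, 13.3% lower in all 4 and 25.1% in none. Of the 22 cytosolic genes, 16 had every one of the 12 stimulated libraries above every one of the 11 unstimulated ones; of the 16 mitochondrial genes 2 did, and 1 lay entirely below. Of all genes tested, 15% lay entirely above and 11.4% entirely below.

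**Figure D2:**
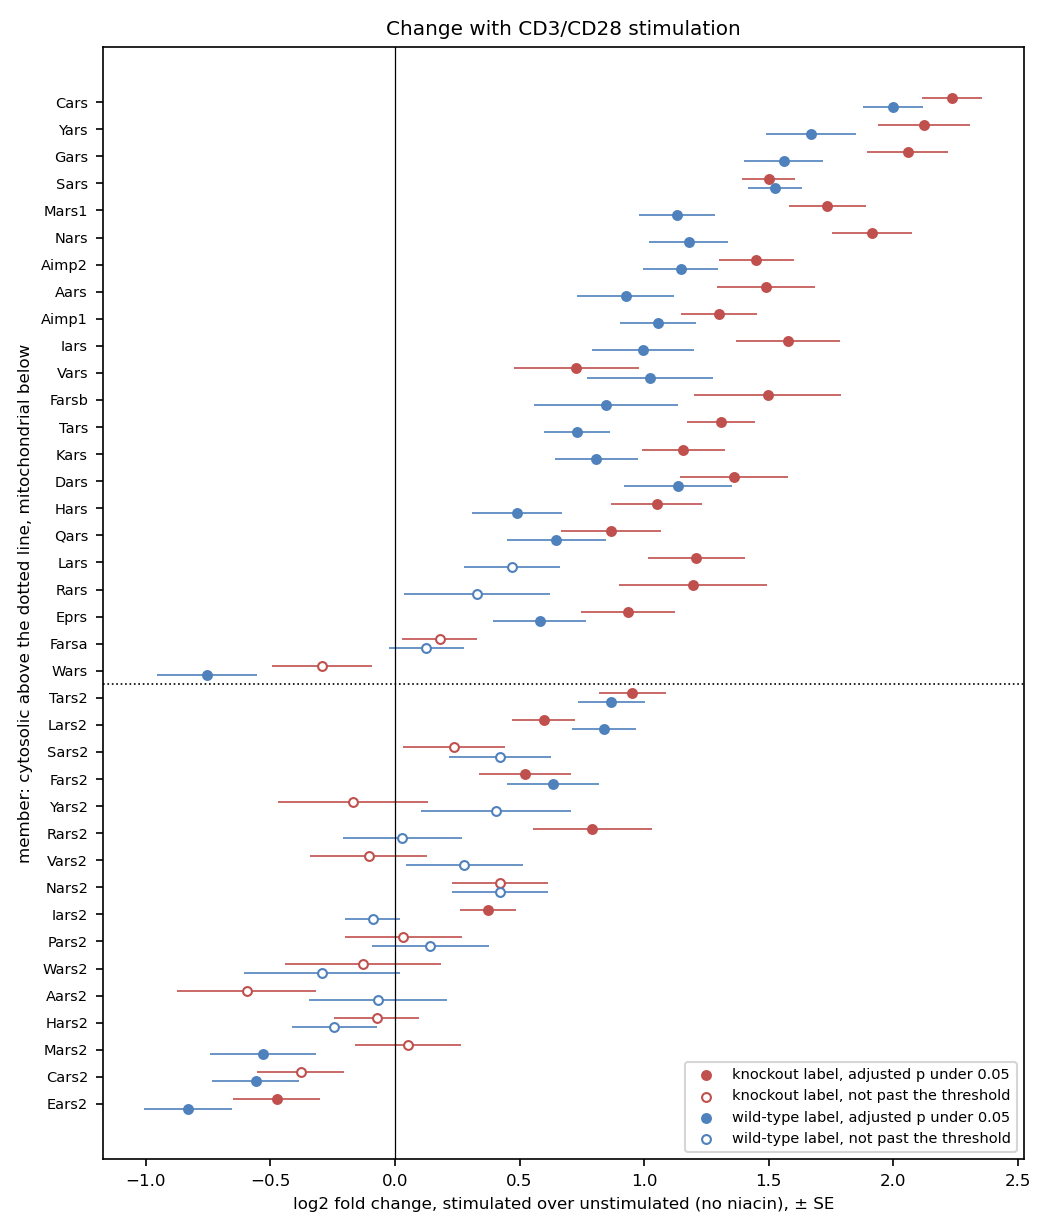
Log2 fold change of each synthetase gene, stimulated over unstimulated cells without niacin, with its SE (red, knockout label; blue, wild-type label; filled points passed the adjusted p of 0.05). Cytosolic genes lie right of 0 except Wars, while mitochondrial genes lie on both sides.

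Summed over the class, the cytosolic genes took 5542 to 7001 CPM (median 6201) in the 12 stimulated libraries and 2216 to 3482 CPM (median 2807) in the 11 unstimulated ones, so the ranges did not overlap. The 16 mitochondrial genes summed to 2329 to 3330 CPM (median 2684) in stimulated libraries and 1620 to 2007 CPM (median 1692) in unstimulated ones. Most of that sum was Lars2, whose share averaged 72.4%, 77.4%, 72.5% and 78.0% in the 4 stimulated groups (knockout label with niacin, wild-type label with niacin, knockout label, wild-type label). Without Lars2, the other 15 summed to group means of 632 to 704.5 CPM in stimulated cells and 544 to 605 CPM in unstimulated cells.

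**Figure D3:**
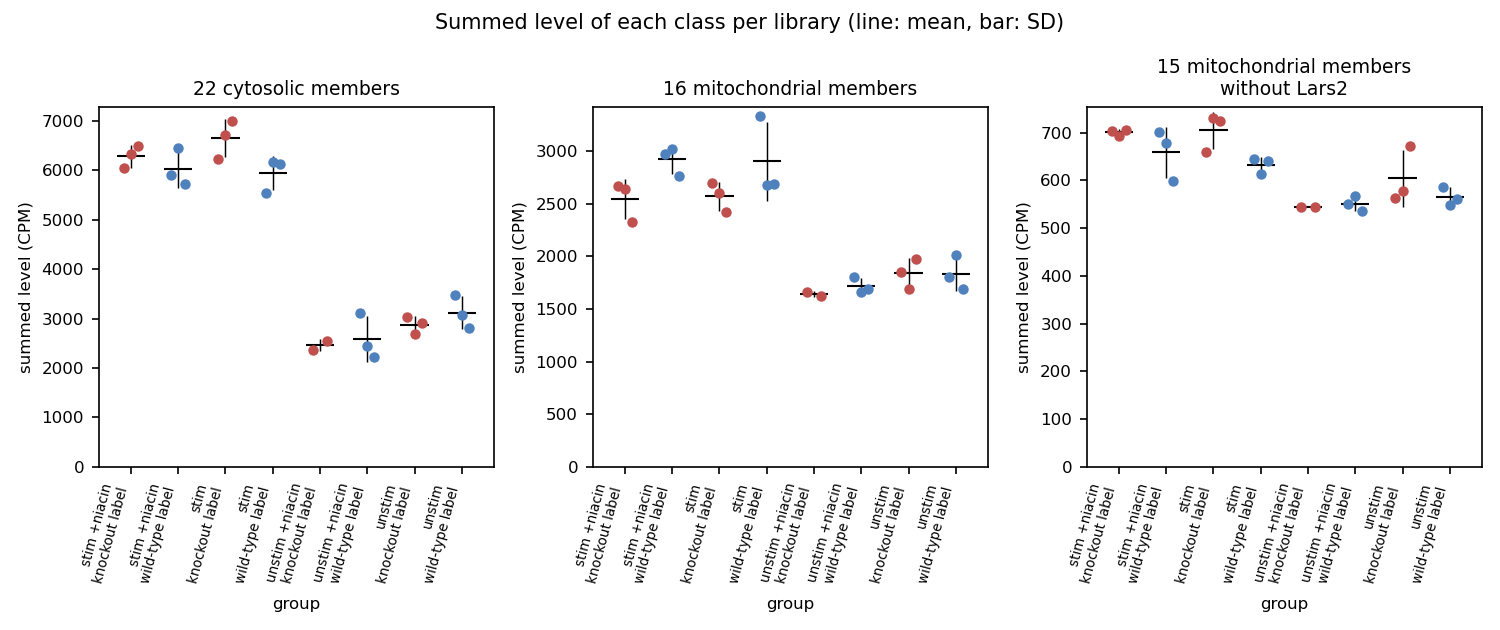
Summed CPM of the 22 cytosolic genes, the 16 mitochondrial genes, and the 15 mitochondrial genes without Lars2, per library (points), with group means (lines) and SD (bars); red points are knockout-labelled and blue points wild-type-labelled, stimulated groups on the left. The cytosolic sums of stimulated libraries (5542 CPM and above) all lie above those of unstimulated libraries (3482 CPM and below).

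Among the free cytosolic enzymes, those for cysteine, tyrosine, glycine, serine and asparagine had the largest log2 fold changes in the mean of the 4 comparisons. Cars reached 208, 197 and 205 CPM in the knockout-labelled libraries with niacin, 217, 231 and 222 in the wild-type-labelled ones with niacin, 215, 246 and 250.2 in the knockout-labelled ones without it and 213, 236 and 197 in the wild-type-labelled ones without it. Unstimulated libraries held 43.1 and 49.8 CPM (knockout label, niacin), 52.1, 50.2 and 46.2 (wild-type label, niacin), 50.0, 53.9 and 46.9 (knockout label) and 60.2, 49.5 and 52.1 (wild-type label). Every stimulated library was more than 3 times as high as any unstimulated one. The log2 fold change was 2.13 ± 0.14 with niacin and 2.24 ± 0.12 without it under the knockout label, and 2.17 ± 0.12 with niacin and 1.998 ± 0.12 without it under the wild-type label (± SE; adjusted p 1.48e-11 to 5.81e-10, edgeR quasi-likelihood test, Benjamini-Hochberg adjustment).

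Yars, one of the genes with TGATGCAA just past its start, stood in stimulated cells at 223, 237 and 256 CPM in the knockout-labelled libraries with niacin, 230.0, 262 and 215 in the wild-type-labelled ones with niacin, 235, 270.0 and 280.4 in the knockout-labelled ones without it and 198, 227 and 221 in the wild-type-labelled ones without it. In unstimulated cells it stood at 61.4 and 66.3 CPM (knockout label, niacin), 80.2, 51.4 and 55.9 (wild-type label, niacin), 71.7, 66.3 and 41.9 (knockout label) and 76.3, 65.9 and 60.9 (wild-type label). The stimulated and unstimulated libraries did not overlap, and the lowest of all was unstimulated knockout-labelled library 3. Its log2 fold change was 1.90 ± 0.21 with niacin and 2.12 ± 0.18 without it under the knockout label, and 1.91 ± 0.18 with niacin and 1.67 ± 0.18 without it under the wild-type label (adjusted p 1.55e-08 to 6.34e-07).

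Gars, whose gene supplies the glycine enzyme of both the cytosol and the mitochondria, had in stimulated cells 565, 579 and 572 CPM in the knockout-labelled libraries with niacin, 403, 521 and 481 in the wild-type-labelled ones with niacin, 563, 634 and 668 in the knockout-labelled ones without it and 467, 537 and 539 in the wild-type-labelled ones without it. Without stimulation its values were 156 and 157 CPM (knockout label, niacin), 178, 144 and 139.6 (wild-type label, niacin), 186, 153 and 109 (knockout label) and 188, 179.6 and 156 (wild-type label). All stimulated libraries were above all unstimulated ones. The change was 1.87 ± 0.19 with niacin and 2.06 ± 0.16 without it under the knockout label, and 1.605 ± 0.16 with niacin and 1.56 ± 0.16 without it under the wild-type label on the log2 scale (adjusted p 3.85e-09 to 1.58e-07).

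Nars, the asparagine enzyme, was measured in stimulated cells at 274, 272 and 274 CPM in the knockout-labelled libraries with niacin, 179, 239 and 235 in the wild-type-labelled ones with niacin, 279.6, 325 and 334 in the knockout-labelled ones without it and 225, 266 and 278 in the wild-type-labelled ones without it. Unstimulated cells gave 92.1 and 93.2 CPM (knockout label, niacin), 104, 97.7 and 97.0 (wild-type label, niacin), 95.7, 93.3 and 59.8 (knockout label) and 108, 126 and 106 (wild-type label). Again no stimulated library reached down to an unstimulated one, and stimulated wild-type-labelled library 1 with niacin was the lowest stimulated one. The log2 fold change was 1.56 ± 0.18 with niacin and 1.91 ± 0.16 without it under the knockout label, and 1.13 ± 0.16 with niacin and 1.18 ± 0.16 without it under the wild-type label (adjusted p 9.25e-09 to 6.38e-06). Sars, for serine, changed by 1.499 to 1.85 on the log2 scale in the 4 comparisons and was called in each. Aars, Tars and Hars, for alanine, threonine and histidine, were also called higher in each, with log2 fold changes from 0.49 (Hars, wild-type label without niacin) to 1.55 (Aars, knockout label with niacin).

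Vars, the cytosolic gene with the highest level per kilobase, had in stimulated cells 1069, 1092 and 1105 CPM in the knockout-labelled libraries with niacin, 1588, 1510.1 and 1174 in the wild-type-labelled ones with niacin, 1157, 1167 and 1202 in the knockout-labelled ones without it and 1188, 1192 and 1157 in the wild-type-labelled ones without it. The unstimulated libraries gave 342 and 413 CPM (knockout label, niacin), 541, 387 and 290.4 (wild-type label, niacin), 580.0, 439 and 1112 (knockout label) and 731, 522 and 488 (wild-type label). Unstimulated knockout-labelled library 3 lay within the range of stimulated cells, and every other unstimulated library lay below all stimulated ones. Under the knockout label without niacin the log2 fold change was 0.73 ± 0.25 (adjusted p 0.0198) with that library and 1.21 without it, and without library 2 of the same group it was no longer called (adjusted p 0.113). It was 1.02 ± 0.25 (adjusted p 0.00252) under the wild-type label.

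The phenylalanine enzyme is built of 2 subunits. Farsb, the beta subunit, was called higher in all 4 comparisons, by 0.74 to 1.496 on the log2 scale. Farsa, the alpha subunit, was called higher only with niacin under the knockout label (0.58 ± 0.17, adjusted p 0.00835), a call lost without library 2 of the unstimulated cells in that comparison (adjusted p 0.0804). Its other 3 log2 fold changes were 0.13 to 0.28 and did not pass. Whether the 2 subunits differ from each other was not tested.

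Wars, whose transcript is known for its induction by interferon gamma, was called lower by edgeR in 1 comparison and higher in none. In stimulated cells it had 219.9, 246 and 245 CPM in the knockout-labelled libraries with niacin, 204, 227 and 171 in the wild-type-labelled ones with niacin, 185, 239 and 229 in the knockout-labelled ones without it and 135, 201 and 238 in the wild-type-labelled ones without it. In unstimulated cells it had 152 and 183 CPM (knockout label, niacin), 247, 169 and 131 (wild-type label, niacin), 256, 256 and 288 (knockout label) and 345, 320.0 and 302 (wild-type label). Under the wild-type label without niacin every stimulated library lay below every unstimulated one, and the log2 fold change was -0.75 ± 0.20 (adjusted p 0.0046). Under the knockout label without niacin it was -0.29 ± 0.20 (adjusted p 0.223), with the groups also apart. With niacin it was 0.50 ± 0.23 under the knockout label (adjusted p 0.0728) and 0.14 ± 0.20 under the wild-type label (adjusted p 0.573), neither of which passed. By limma voom both passed (0.49, adjusted p 0.0088, and 0.36, adjusted p 0.0367). The edgeR value of 0.14 under the wild-type label with niacin turned to -0.053 without unstimulated wild-type-labelled library 3 with niacin.

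The 10 complex members (Dars, Eprs, Iars, Kars, Lars, Mars1, Qars, Rars and the scaffolds Aimp1 and Aimp2) had 10, 7, 10 and 8 genes called higher (knockout label with niacin, wild-type label with niacin, knockout label, wild-type label), and 0 lower in each. The 12 free cytosolic genes had 11, 10, 10 and 10 higher, with Wars lower in the last. Median log2 fold changes were 1.21, 0.95, 1.25 and 0.90 in the complex, and 1.54, 1.28, 1.49 and 0.97 outside it. The difference between the 2 placements was not tested.

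Mars1, for methionine, had the largest change of the complex members in the mean of the 4 comparisons. In stimulated cells it had 332, 349 and 378 CPM in the knockout-labelled libraries with niacin, 309, 339.6 and 283 in the wild-type-labelled ones with niacin, 355, 364 and 396 in the knockout-labelled ones without it and 267, 312 and 320.1 in the wild-type-labelled ones without it. Its unstimulated values were 109 and 123 CPM (knockout label, niacin), 138, 104 and 96.0 (wild-type label, niacin), 121, 117 and 96.7 (knockout label) and 166, 128 and 116 (wild-type label). The stimulated and unstimulated libraries did not overlap, and the log2 fold change was 1.61 ± 0.18 with niacin and 1.73 ± 0.16 without it under the knockout label, and 1.46 ± 0.15 with niacin and 1.13 ± 0.15 without it under the wild-type label (adjusted p 2.22e-08 to 5.61e-06). The scaffold Aimp1 changed by 1.05 to 1.51 and Aimp2 by 1.15 to 1.599 on the log2 scale, each called in all 4 comparisons. Iars, Kars and Qars, for isoleucine, lysine and glutamine, were called higher in all 4 as well, by 0.65 (Qars) to 1.58 (Iars).

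Rars, for arginine, was called under the knockout label only, at 1.17 ± 0.34 with niacin (adjusted p 0.00746) and 1.19 ± 0.30 without it (adjusted p 0.00218). When unstimulated library 3 was left out, the value without niacin was 0.80 (adjusted p 0.000695). Under the wild-type label its values were 0.13 ± 0.29 with niacin and 0.33 ± 0.29 without it (adjusted p 0.717 and 0.372). In stimulated cells it had 140.0, 157 and 152 CPM under the knockout label and 94.3, 113 and 130.1 under the wild-type label, without niacin. The same for unstimulated cells was 94.1, 77.4 and 23.5 CPM under the knockout label and 92.9, 91.9 and 83.8 under the wild-type label. The test of the difference between the labels is given further on. Dars, Eprs and Lars, for aspartate, glutamate with proline, and leucine, each missed the threshold in 1 comparison: Dars and Eprs with niacin under the wild-type label (0.43 ± 0.21 and 0.33 ± 0.19), Lars without niacin under the wild-type label (0.47 ± 0.19, adjusted p 0.0534).

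**Figure D4:**
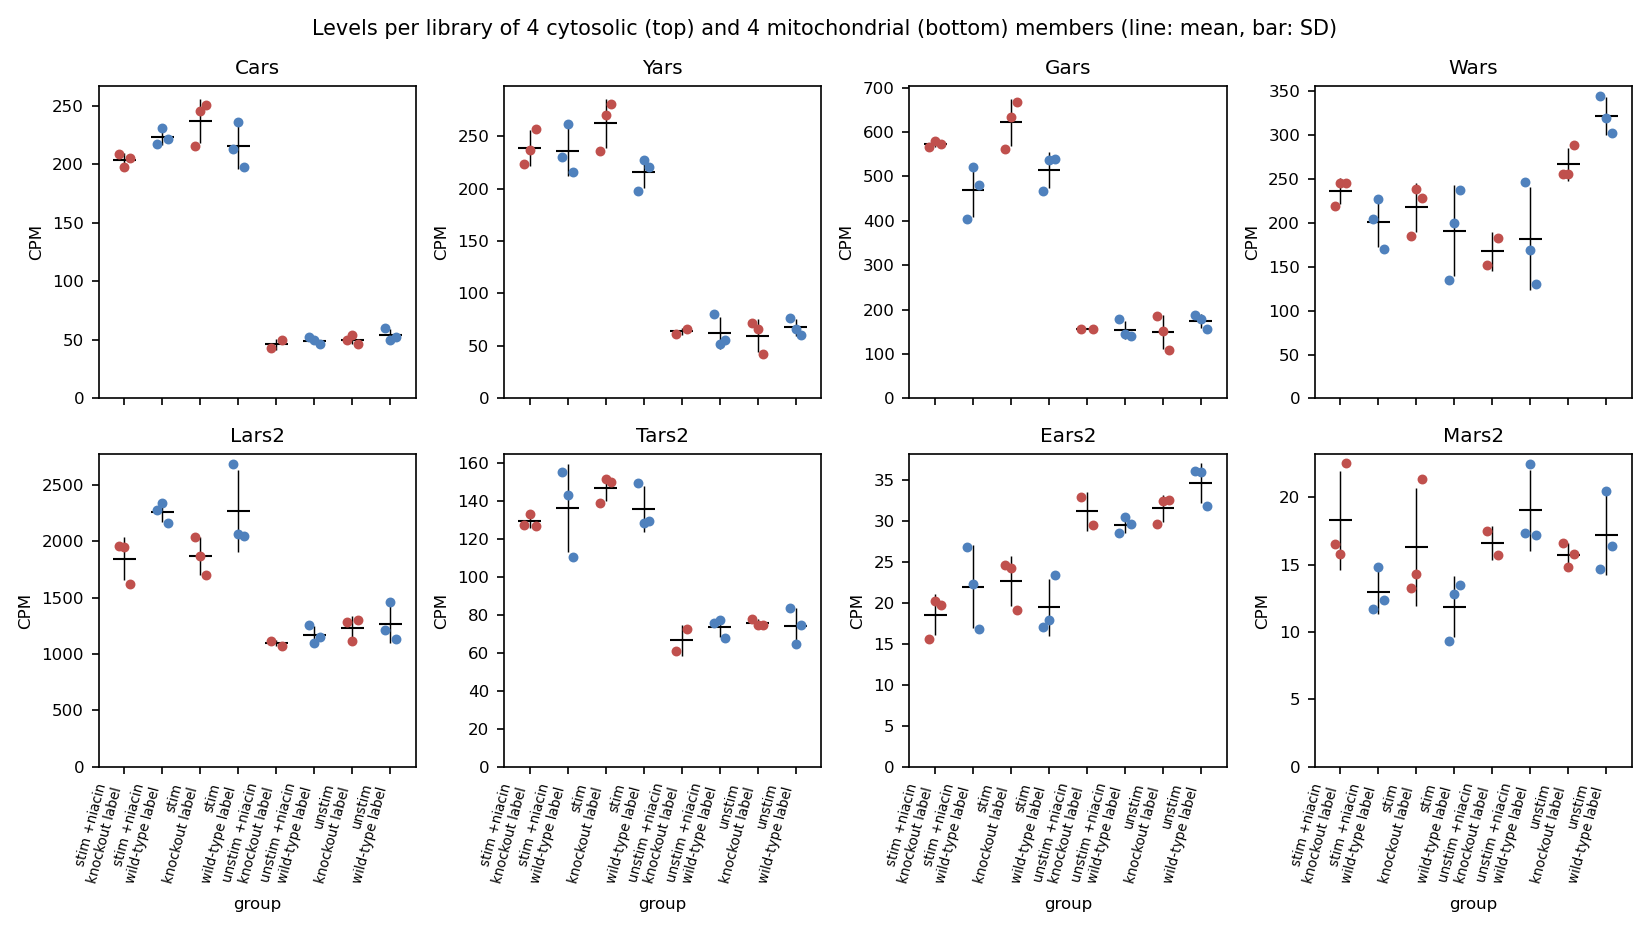
CPM per library of 4 cytosolic genes (Cars, Yars, Gars, Wars) and 4 mitochondrial genes (Lars2, Tars2, Ears2, Mars2); points are libraries (red, knockout label; blue, wild-type label), lines group means and bars SD, stimulated groups on the left. Cars, Yars, Gars, Lars2 and Tars2 separate the stimulated from the unstimulated libraries upwards and Ears2 downwards, while Wars and Mars2 overlap.

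Of the mitochondrial enzymes, Tars2 and Lars2 rose in every comparison. Tars2, for threonine, had in stimulated cells 127, 133 and 127 CPM in the knockout-labelled libraries with niacin, 155, 143 and 110.5 in the wild-type-labelled ones with niacin, 139, 151 and 149.8 in the knockout-labelled ones without it and 149, 128 and 129 in the wild-type-labelled ones without it. Unstimulated cells gave 60.7 and 72.4 CPM (knockout label, niacin), 75.4, 77.4 and 67.9 (wild-type label, niacin), 77.9, 74.6 and 74.8 (knockout label) and 83.4, 64.6 and 74.6 (wild-type label). All 12 stimulated libraries were above all 11 unstimulated ones. Its log2 fold change was 0.96 ± 0.15 with niacin and 0.95 ± 0.13 without it under the knockout label, and 0.89 ± 0.13 with niacin and 0.87 ± 0.13 without it under the wild-type label (adjusted p 7.14e-06 to 4.07e-05).

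Lars2, for leucine, had in stimulated cells 1959, 1948 and 1623 CPM in the knockout-labelled libraries with niacin, 2272, 2341 and 2165 in the wild-type-labelled ones with niacin, 2033, 1865 and 1699 in the knockout-labelled ones without it and 2686, 2066 and 2049 in the wild-type-labelled ones without it. Unstimulated libraries gave 1114 and 1075 CPM (knockout label, niacin), 1254, 1094 and 1154 (wild-type label, niacin), 1286, 1113 and 1302 (knockout label) and 1211, 1458 and 1130.5 (wild-type label). Here too the stimulated and unstimulated libraries stood apart. The log2 fold change was 0.75 ± 0.15 with niacin and 0.60 ± 0.13 without it under the knockout label, and 0.95 ± 0.13 with niacin and 0.84 ± 0.13 without it under the wild-type label (adjusted p 3.99e-06 to 0.000591). Lars2 is a gene whose counts can collect ribosomal RNA reads, so the ribosomal-RNA-like transcript Gm26917 is set beside it. Gm26917 averaged 2047, 3630, 2230 and 3463 CPM in the 4 stimulated groups (knockout label with niacin, wild-type label with niacin, knockout label, wild-type label) and 2009, 2144, 4889 and 3130 CPM in the matching unstimulated groups. Gm26917 was highest, at 10196 CPM, in unstimulated knockout-labelled library 3. Lars2 was 1302 CPM there, against 1286 and 1113 CPM in libraries 1 and 2 of the group. In stimulated cells without niacin, Gm26917 ran in the same order of libraries as Lars2 under both labels. It was 4898, 3002 and 2490 CPM under the wild-type label and 2424, 2227 and 2038 CPM under the knockout label. In stimulated cells with niacin the orders differed. There Gm26917 was 4820, 3458 and 2612 CPM under the wild-type label and 2043, 1832 and 2267 CPM under the knockout label. The part of Gm26917 in the Lars2 counts was not tested. The 50-base words of Lars2 were shared with other genes for 0.196% of the transcript. That search took exact matches between annotated transcripts, so it cannot show whether ribosomal RNA reads were counted in Lars2.

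Fars2, for phenylalanine, had in stimulated cells 35.6, 29.1 and 33.0 CPM in the knockout-labelled libraries with niacin, 40.5, 43.0 and 41.9 in the wild-type-labelled ones with niacin, 30.4, 36.2 and 26.4 in the knockout-labelled ones without it and 45.5, 33.9 and 39.3 in the wild-type-labelled ones without it. Unstimulated libraries had 26.4 and 25.7 CPM (knockout label, niacin), 30.1, 24.8 and 22.04 (wild-type label, niacin), 24.3, 25.1 and 15.2 (knockout label) and 29.0, 24.2 and 23.2 (wild-type label). In each of the 4 comparisons the stimulated libraries lay above the unstimulated ones. Fars2 was called higher in 3, at 0.71 ± 0.18 with niacin under the wild-type label, 0.52 ± 0.18 without it under the knockout label and 0.63 ± 0.18 without it under the wild-type label (adjusted p 0.00321, 0.0231 and 0.00822), and not with niacin under the knockout label (0.32 ± 0.21, adjusted p 0.204). The call under the knockout label was lost without library 2 of the stimulated cells (adjusted p 0.115), when unstimulated library 3 was left out (0.33, adjusted p 0.0986), and in 3 of the 7 other alternatives (adjusted p up to 0.179). Fars2 shares 501 exonic bases (8.72% of its exons) with Nrn1 on the opposite strand. Nrn1 averaged 23.7, 38.04, 22.03 and 37.99 CPM in the 4 stimulated groups and 10.4, 7.14, 13.03 and 6.76 CPM in the matching unstimulated groups. Whether the counting used strand is not stated in the labels or processing notes, and its part in the Fars2 counts was not tested.

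Rars2, for arginine, was called higher in 1 comparison. Stimulated cells had 53.9, 55.4 and 46.9 CPM in the knockout-labelled libraries with niacin, 31.3, 39.8 and 40.6 in the wild-type-labelled ones with niacin, 42.5, 53.8 and 60.9 in the knockout-labelled ones without it and 33.5, 39.9 and 46.4 in the wild-type-labelled ones without it. Unstimulated cells had 34.5 and 38.8 CPM (knockout label, niacin), 35.8, 42.4 and 34.7 (wild-type label, niacin), 34.9, 40.2 and 15.1 (knockout label) and 40.3, 35.4 and 41.7 (wild-type label). The values ran close together, with 1 unstimulated library far below the rest. Without niacin under the knockout label the log2 fold change was 0.79 ± 0.24 (adjusted p 0.00925) with library 3 of the unstimulated cells at 15.1 CPM. It was 0.48 (adjusted p 0.0233) without that library. In the other comparisons it was 0.51 ± 0.27 (knockout label with niacin), -0.016 ± 0.24 (wild-type label with niacin) and 0.029 ± 0.24 (wild-type label), none of which passed, and the last turned to -0.017 with RLE factors.

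Ears2, for glutamate, was the mitochondrial gene that fell in all 4 comparisons. In stimulated cells it had 15.6, 20.2 and 19.8 CPM in the knockout-labelled libraries with niacin, 26.8, 22.3 and 16.9 in the wild-type-labelled ones with niacin, 24.6, 24.2 and 19.1 in the knockout-labelled ones without it and 17.03, 17.9 and 23.4 in the wild-type-labelled ones without it. In unstimulated cells it had 32.9 and 29.5 CPM (knockout label, niacin), 28.5, 30.5 and 29.6 (wild-type label, niacin), 29.6, 32.4 and 32.5 (knockout label) and 36.1, 35.9 and 31.8 (wild-type label). All 12 stimulated libraries were below all 11 unstimulated ones. The log2 fold change was -0.75 ± 0.19 with niacin and -0.48 ± 0.17 without it under the knockout label, and -0.43 ± 0.17 with niacin and -0.83 ± 0.17 without it under the wild-type label (adjusted p 0.00311, 0.0273, 0.0451 and 0.000647). The call with niacin under the wild-type label was lost in 12 of the 23 fits that left out 1 library (adjusted p up to 0.213, without library 3 of the stimulated cells). The one without niacin under the knockout label was lost in 2 of 23 (up to 0.126, without library 3 of the stimulated cells).

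Mars2 and Cars2, for methionine and cysteine, were called lower under the wild-type label. Mars2 had in stimulated cells 16.6, 15.8 and 22.5 CPM in the knockout-labelled libraries with niacin, 11.7, 14.8 and 12.4 in the wild-type-labelled ones with niacin, 13.3, 14.3 and 21.3 in the knockout-labelled ones without it and 9.30, 12.9 and 13.5 in the wild-type-labelled ones without it. In unstimulated cells it had 17.5 and 15.7 CPM (knockout label, niacin), 17.3, 22.5 and 17.2 (wild-type label, niacin), 16.6, 14.8 and 15.8 (knockout label) and 14.7, 20.4 and 16.4 (wild-type label). Under the wild-type label the stimulated libraries lay below the unstimulated ones, and under the knockout label they overlapped. The log2 fold change was -0.55 ± 0.21 with niacin and -0.53 ± 0.21 without it under the wild-type label (adjusted p 0.0354 and 0.0484), against 0.14 ± 0.24 and 0.051 ± 0.21 under the knockout label (adjusted p 0.638 and 0.851), the last of which was -0.033 with RLE factors. Mars2 ranged from 9.30 to 22.5 CPM over all libraries, and the call without niacin was lost in 16 of the 23 fits that left out a library.

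Cars2 had in stimulated cells 36.2, 41.8 and 44.7 CPM in the knockout-labelled libraries with niacin, 43.9, 36.2 and 34.1 in the wild-type-labelled ones with niacin, 30.0, 38.2 and 33.5 in the knockout-labelled ones without it and 26.7, 20.7 and 32.3 in the wild-type-labelled ones without it. Cars2 in unstimulated cells had 40.1 and 38.4 CPM (knockout label, niacin), 41.7, 40.9 and 39.2 (wild-type label, niacin), 37.5, 44.2 and 50.7 (knockout label) and 45.5, 32.1 and 39.9 (wild-type label). It was called lower without niacin under the wild-type label (-0.56 ± 0.17, adjusted p 0.0133), where 1 stimulated library lay just inside the unstimulated range. The other 3 values, 0.060 ± 0.19, -0.091 ± 0.17 and -0.38 ± 0.17, did not pass. Sars2 was called higher in both comparisons with niacin (0.97 ± 0.23 under the knockout label and 0.72 ± 0.21 under the wild-type label), Vars2 in 1 (0.70 ± 0.24, wild-type label with niacin) and Iars2 in 1 (0.37 ± 0.11, knockout label without niacin). Aars2, Hars2, Nars2, Pars2, Wars2 and Yars2 were called in none of the 4. When unstimulated knockout-labelled library 3 was left out, Sars2 (0.58, adjusted p 0.00755), Yars2 (0.64, adjusted p 0.00166, against -0.17 with that library) and the cytosolic Farsa (0.35, adjusted p 0.0396) were also called higher under the knockout label without niacin.

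All mitochondrial enzymes but Pars2 were also set beside the cytosolic enzyme for the same amino acid, 15 pairs with Farsa standing for phenylalanine and Eprs for glutamate. Pars2, for proline, was left unpaired, though Eprs serves proline as well. The cytosolic log2 fold change was the larger in 15 of 15 pairs with niacin under the knockout label, 11 with niacin under the wild-type label, 13 without it under the knockout label and 11 without it under the wild-type label. The 15 of 15 include a near tie for leucine (0.753 ± 0.22 for Lars and 0.752 ± 0.15 for Lars2). With niacin under the wild-type label, threonine was nearly tied the other way (0.881 for Tars and 0.887 for Tars2). In the mean of the 4 comparisons the cytosolic change was larger in 12 of 15, and the median difference was 1.03. The widest pair was cysteine, with 2.14 ± 0.063 for Cars and -0.24 ± 0.090 for Cars2. Methionine gave 1.48 ± 0.080 and -0.22 ± 0.11, and tyrosine 1.90 ± 0.096 and 0.39 ± 0.16. Leucine, threonine and tryptophan lay near equality, with 0.73 ± 0.10 and 0.79 ± 0.066, 1.07 ± 0.070 and 0.92 ± 0.070, and -0.10 ± 0.10 and -0.062 ± 0.16. For phenylalanine the order turned with the subunit: Fars2 (0.55 ± 0.095) lay above Farsa (0.29 ± 0.078) and below Farsb (1.08 ± 0.15). Differences between genes were not tested.

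**Figure D5:**
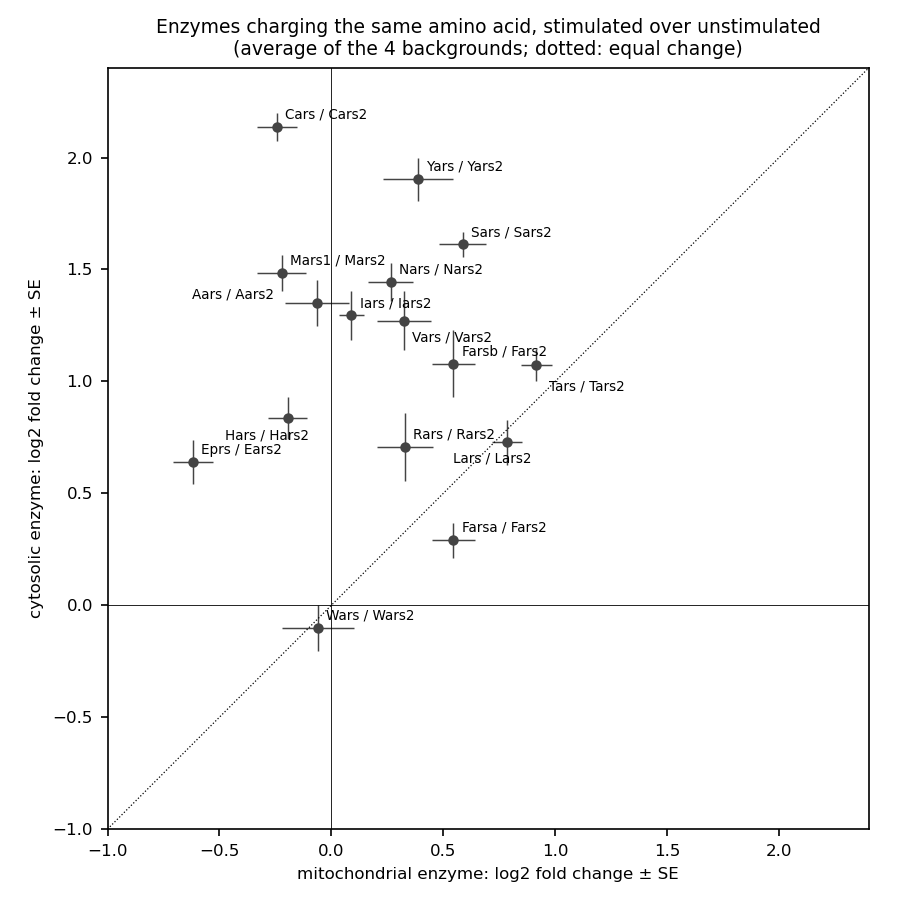
Log2 fold change (stimulated over unstimulated, mean of the 4 backgrounds, ± SE) of the cytosolic enzyme against that of the mitochondrial enzyme for the same amino acid; Fars2 is drawn with both Farsa and Farsb, and the dotted line marks equal change. Most pairs lie above the line, cysteine highest, with leucine, threonine and tryptophan close to it.

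Other genes of the pathway were counted in the same comparisons from lists written with earlier results of these data known. Counts are given as knockout label with niacin, wild-type label with niacin, knockout label, wild-type label. They are to be read against the 23.4% to 26% of all genes called higher, and against the shares called lower given above. ATF4 and 19 of its known targets had 18, 19, 17 and 19 of 20 genes higher and 0 lower, with medians of 2.21, 2.29, 2.13 and 2.01. Atf4 itself changed by 2.11, 2.12, 2.09 and 2.04 on the log2 scale, and Asns, asparagine synthetase, by 6.01, 5.45, 6.00 and 5.60. The cytosolic elongation and release factors had 9, 9, 9 and 8 of 12 higher, with Eef1a1, the factor that carries charged transfer RNA to the ribosome, at 1.00, 1.35, 1.20 and 1.09. Abce1 was the one lower call of that list (-1.21, wild-type label with niacin). Myc changed by 1.65, 1.92, 1.23 and 1.58, and Eif2ak4, the kinase that senses uncharged transfer RNA, by 0.73, 0.53, 0.53 and 0.84, all called.

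The mitochondrial translation factors had 5, 6, 6 and 3 of 14 higher and 2, 1, 1 and 1 lower. Tufm and Tsfm, mitochondrial elongation factors, were called higher in all 4, and Trmu, which modifies mitochondrial transfer RNA, lower in all 4 (-0.76, -0.99, -0.44 and -0.47). RNA polymerase III and its factors, which make transfer RNA, had 6, 6, 5 and 5 higher and 4, 6, 5 and 6 lower of 21. Both shares were near those of all genes. Polr3k was higher in all 4 (1.77, 1.34, 1.90 and 1.58) and Bdp1 lower in all 4 (-1.43, -1.67, -1.63 and -1.17). Transfer RNA processing, export and modification had 17, 11, 12 and 9 of 29 higher and 1, 3, 2 and 2 lower, with the exportin Xpot higher in each (1.10, 0.86, 1.19 and 0.92). Other synthetase-related genes had 5, 4, 7 and 4 of 14 higher and 2, 2, 2 and 3 lower. Among them Eef1e1, the further scaffold of the multi-synthetase complex, was higher in 3 comparisons (1.42, 1.46 and 1.04, but 0.39 with niacin under the wild-type label).

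Niacin was compared with no niacin within each stimulation state and label. By edgeR's quasi-likelihood test, 0 of 38 genes passed in any of the 4 comparisons or in their mean. Of all genes, 0% were called in unstimulated knockout-labelled cells, 0% in unstimulated wild-type-labelled cells, 0.00592% in stimulated knockout-labelled cells, 0% in stimulated wild-type-labelled cells and 0.154% in the mean. At an unadjusted p under 0.05 there were 4, 2, 0, 2 and 3 of the 38 in the same order, against 7.96%, 2.71%, 5.22%, 9.96% and 6.33% of all genes. DESeq2 called 0 in each (0.0415%, 0.0829%, 0.0652%, 0.249% and 0.646% of all genes). limma voom with sample quality weights called 0, 2, 0, 3 and 2 (0.0237%, 1.69%, 0.0474%, 10.8% and 2.1% of all genes).

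Wars was lower with niacin in every unstimulated library under both labels, without passing the test. Under the wild-type label it had 247, 169 and 131 CPM with niacin, against 345, 320.0 and 302 CPM without it. The groups did not overlap, and the log2 fold change was -0.82 ± 0.20 (unadjusted p 0.00055, adjusted p 0.461; limma voom adjusted p 0.000432). Under the knockout label it had 152 and 183 CPM with niacin, against 256, 256 and 288 CPM without it, again with no overlap (-0.67 ± 0.23, adjusted p 0.608). In stimulated cells its groups overlapped. The test of niacin changing the stimulation response gave Wars 0.84 ± 0.21 (adjusted p 0.256 by edgeR, 0.0318 by DESeq2 and 0.00586 by limma voom). In the mean over the 4 backgrounds Wars differed by -0.33 ± 0.10 (adjusted p 0.415) and Sars by -0.14 ± 0.054 (adjusted p 0.676).

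Other genes with small p-values did not pass by edgeR with all libraries either. Vars in unstimulated knockout-labelled cells had 342 and 413 CPM with niacin, against 580.0, 439 and 1112 CPM without it (-0.91 ± 0.29, adjusted p 0.608). Without library 3 of the cells without niacin the log2 fold change was -0.43. Sars in unstimulated wild-type-labelled cells differed by -0.23 ± 0.11 (adjusted p 1). Dars in stimulated wild-type-labelled cells had 206, 204 and 325 CPM with niacin, against 364, 428 and 386 CPM without it (-0.68 ± 0.21, adjusted p 0.405). Its 2 lowest libraries, 1 and 2 of the cells with niacin, were those with a low share of counts on the mitochondrial genome (0.187% and 0.217%, against 0.605% in library 3). The part of that share in the Dars value was not tested. Without library 3 of the cells with niacin, Dars passed (-0.94, adjusted p 0.0256), where 3.34% of all genes did. Cars2 in the same comparison had 43.9, 36.2 and 34.1 CPM with niacin, against 26.7, 20.7 and 32.3 CPM without it (0.52 ± 0.17, adjusted p 0.406). By limma voom, Dars (-0.87, adjusted p 0.00124), Cars2 (0.61, adjusted p 0.02025) and Eprs (-0.41, adjusted p 0.0327) passed in that comparison. The same tool called Vars in unstimulated wild-type-labelled cells (-0.51, adjusted p 0.0467) and Dars in the mean (-0.32, adjusted p 0.00697). The shares of all genes called by it are given above. In stimulated knockout-labelled cells the smallest p-values were those of Cars (-0.22 ± 0.11, adjusted p 0.9998) and Iars2 (-0.20 ± 0.11, adjusted p 1).

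The knockout label was compared with the wild-type label in each condition. By edgeR 0 of 38 genes passed in unstimulated cells with niacin, stimulated cells with niacin, unstimulated cells, stimulated cells, or their mean, where 0.0355%, 1.44%, 0.0415%, 0.113% and 0.326% of all genes were called. At an unadjusted p under 0.05 there were 0, 8, 3, 5 and 3 of the 38, against 0.983%, 19.4%, 10.4%, 8.45% and 9.87% of all genes. DESeq2 called 0, 3, 0, 1 and 1 (0.107%, 6.65%, 0.13%, 0.604% and 1.52% of all genes), and limma voom 0, 10, 0, 1 and 2 (0.184%, 20.2%, 0.0415%, 1% and 4.99%). Leaving out unstimulated knockout-labelled library 3, which also enters the shared estimate of spread, brought the calls to 0, 6, 0, 1 and 1 (0.0476%, 10.5%, 0.0416%, 0.208% and 0.916% of all genes). The 6 were Farsb, Hars, Iars2, Rars, Rars2 and Tars (adjusted p 0.00557 for Rars, with 0.77 ± 0.29 in the fit with that library), and the single calls were Iars2. In stimulated cells with niacin, the DESeq2 and limma voom calls went both ways. Sars was lower under the knockout label by DESeq2 (-0.30, adjusted p 0.0246) and limma voom (-0.33, adjusted p 0.00698). Vars was lower by limma voom (-0.45, adjusted p 0.02575), and the other calls there were higher.

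In stimulated cells the log2 difference between the labels was above 0 in 19 of 22 cytosolic genes with niacin (median 0.19) and in 17 of 22 without it (median 0.23), and none of them passed the threshold. Of all genes, 47.7% and 47.2% were above 0, with medians of -0.019 and -0.015. In unstimulated cells the difference was above 0 in 5 of 22 cytosolic genes with niacin (median -0.064) and in 3 of 22 without it (median -0.26). Without unstimulated knockout-labelled library 3 the last median was -0.07. Of all genes, 46.3% and 48.5% were above 0 there. In stimulated cells with niacin, Tars had 227, 262 and 257 CPM under the knockout label, against 183, 194 and 188 CPM under the wild-type label (0.40 ± 0.13, adjusted p 0.113). Without niacin it had 224, 243 and 276 CPM under the knockout label, against 165, 199 and 211 CPM under the wild-type label (0.37 ± 0.13, adjusted p 0.443). Neither pair of groups overlapped.

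Iars2, the mitochondrial isoleucine enzyme, was higher in every knockout-labelled library of stimulated cells. With niacin it had 114, 113 and 109 CPM under the knockout label, against 91.0, 93.9 and 86.5 CPM under the wild-type label (0.31 ± 0.11, adjusted p 0.138 by edgeR, 0.0390 by DESeq2 and 0.0213 by limma voom). Without niacin it had 112, 140.0 and 133 CPM under the knockout label, against 92.9, 92.6 and 97.3 CPM under the wild-type label (0.45 ± 0.11, adjusted p 0.185 by edgeR, 0.00136 by DESeq2 and 0.0123 by limma voom). In the mean over the 4 conditions it differed by 0.18 ± 0.057 (adjusted p 0.249) and Lars2 by -0.18 ± 0.065 (adjusted p 0.338). Iars2 shares 2034 bases (22.9% of its exons) with Rab3gap2 on the opposite strand. Rab3gap2 averaged 46.5 and 43.3 CPM in stimulated knockout-labelled and wild-type-labelled cells with niacin, and 45.6 and 50.2 CPM without niacin.

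In unstimulated cells without niacin, Nars had 95.7, 93.3 and 59.8 CPM under the knockout label, against 108, 126 and 106 CPM under the wild-type label (-0.45 ± 0.16, adjusted p 0.409; -0.26 without library 3 of the knockout-labelled cells). Yars2 had 32.3, 35.5 and 112 CPM under the knockout label, against 30.4, 41.1 and 37.7 CPM under the wild-type label (0.71 ± 0.30, adjusted p 0.434; -0.10 without that library). With niacin, Dars and Tars2 had the smallest p-values in unstimulated cells (-0.22 ± 0.24 and -0.15 ± 0.15, adjusted p 1 for both).

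The stimulation response was last tested for a difference between the labels, as an interaction averaged over niacin. Again 0 of 38 genes passed by edgeR (0.077% of all genes did), with 10 of 38 at an unadjusted p under 0.05 (18.9% of all genes). DESeq2 called 3 (Iars2, Nars and Tars) and limma voom 7 (Iars2, Lars, Mars2, Nars, Rars, Rars2 and Tars), each with a higher log2 fold change under the knockout label. Those fits called 4.28% and 9.93% of all genes, and edgeR without unstimulated knockout-labelled library 3 called 1.05%. The difference was above 0 in 20 of the 22 cytosolic genes and 9 of the 16 mitochondrial ones, with medians of 0.37 and 0.024, against 47.5% of all genes and a median of -0.034. Without unstimulated knockout-labelled library 3 the medians were 0.29 and 0.05. Tars gave 0.53 ± 0.14 (adjusted p 0.0887; 0.0511 without that library) and Nars 0.58 ± 0.16 (adjusted p 0.1; 0.0520 without it). For Rars it was 0.95 ± 0.30 (adjusted p 0.126), and without that library 0.75 with an adjusted p of 0.0350. Without unstimulated knockout-labelled library 1, 4 passed (Iars2, Nars, Rars and Tars, adjusted p 0.0382 to 0.0447), where 3.7% of all genes did. These comparisons use the same libraries as those of stimulation and label above. For niacin in place of the label, 0 of 38 passed (0% of all genes), with 5 of 38 at an unadjusted p under 0.05 (11.9% of all genes), DESeq2 calling 1 (Wars, with 0.32% of all genes) and limma voom 2 (Vars and Wars, with 1.88%). Vars gave 0.79 ± 0.26 (adjusted p 0.405).

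Some of the genes share exons with neighbours, and reads there could be split or dropped by the counting. Aimp2 shares 29.4% of its exonic bases with Eif2ak1, Farsb 9.47% with Sgpp2, Vars2 8.52% with Gm20483, Cars2 5.83% with Naxd, and Hars 195 bases with Hars2, all on opposite strands. Aars shares 14.3% with Exosc6 on the same strand, and Exosc6 was at 0 in all 23 libraries. Mars1 shares 68 bases with Ddit3, a target of ATF4 on the opposite strand that averaged 38.1, 77.5, 53.5 and 71.6 CPM in the 4 stimulated groups and 18.03, 15.6, 18.04 and 16.8 CPM in the matching unstimulated groups. The values of these genes are uncertain to that extent.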

How the data were processed

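RNA of sorted mouse CD4+ T cells was made into SMART-Seq v4 libraries, per the labels' protocols. The authors deposited a table of raw counts per gene with exon lengths. Per the submitters' processing notes, Trimmomatic 0.38, STAR 2.7.0e and featureCounts 1.6.3 were used with GRCm38.p5. Neither the annotation release nor whether reads were counted by strand is stated there.

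From these counts, edgeR 4.0.16 (R 4.3.3) was run with TMM factors, its filter at a minimum count of 10, 1 mean per group over all 23 libraries and quasi-likelihood tests, with Benjamini-Hochberg adjustment over 16882 genes and a threshold of 0.05. Total counts of 13205565 to 30090018 and a biological coefficient of variation of 27.4% set the precision. Library numbers were not used to pair the groups, and the labels do not say whether a number marks a shared mouse. The steps were tested on data simulated with known changes in stimulated wild-type-labelled cells without niacin. Of 100 genes changed by 1 on the log2 scale, edgeR recovered 34, limma voom 34 and DESeq2 41. Of 100 genes changed by 2 they recovered 69, 69 and 75, so many changes of these sizes were missed. False calls numbered 7, 6 and 32. Alternatives were RLE factors, no filter, DESeq2 1.42.0, limma 3.58.1 voom with quality weights, a replicate block, only the compared groups, leaving out each library, and, added after seeing the data, leaving out 2 libraries with little mitochondrial RNA.

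The members and lists were chosen with earlier results of these data known. Values per library were given for the 5 cytosolic and 5 mitochondrial genes with the largest called changes without niacin, for genes called against most of their class, and for the 2 genes with the smallest p where 0 passed; Vars, Rars and others were added after their values were seen.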

Additional observations from a re-analysis of the deposited data

How the results depend on the processing

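The cytosolic genes called higher with stimulation numbered 14 to 22 of 22 under every alternative run, and 21 in the mean of the 4 backgrounds under all of them. The mitochondrial counts moved more. With RLE factors, mitochondrial genes called lower under the knockout label became 3 and those higher in the mean became 4, while 3 uncalled values turned sign: Rars2 under the wild-type label (-0.017), Mars2 under the knockout label (-0.033) and Cars2 with niacin under the knockout label (-0.0197). DESeq2 gave 3 and 5 for the same counts and the same 3 signs (-0.0169, -0.0326 and -0.01965). Without the filter, mitochondrial genes higher under the knockout label became 3, those lower with niacin under the wild-type label 0, and Cars2 with niacin under the knockout label -0.011. With limma voom, mitochondrial genes higher became 5 under the wild-type label and 9 with niacin under the knockout label, and Yars2 by label in unstimulated cells became -0.11. With only the compared groups, mitochondrial genes became 2 higher and 0 lower under the knockout label, 1 lower with niacin under the wild-type label and 6 higher with niacin under the knockout label; that fit was not run for means and interactions. Without both libraries of little mitochondrial RNA, they became 2 higher and 1 lower with niacin under the wild-type label, where Rars2 was 0.086 and Wars -0.12.

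In the niacin, label and interaction comparisons, edgeR without the filter called 1 gene each for niacin in unstimulated cells under the wild-type label (Wars) and the knockout label (Vars), in stimulated wild-type-labelled cells (Dars) and in the mean (Vars), 1 each by label in unstimulated cells (Yars2) and stimulated cells with niacin (Rars), 1 in the label interaction (Rars) and 2 in the niacin interaction (Vars and Wars). Those fits called 0.204%, 1.38%, 1.13%, 0.659%, 2.22%, 3.75%, 3.63% and 1.7% of all genes in that order. limma voom called 2, 3 and 2 for niacin (unstimulated and stimulated wild-type label, mean), 1, 10 and 2 by label (stimulated, stimulated with niacin, mean), 2 in the niacin interaction and 7 in the label interaction. DESeq2 called 1, 3 and 1 by label in those conditions, and 1 and 3 in the interactions. The fit of only the compared groups called 1 (Rars) by label in stimulated cells with niacin, and 3.24% of all genes. The cause of these changes was not tested.

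With the replicate number as a block, mitochondrial genes lower with niacin under the wild-type label became 1 against 2, and no member was called in the niacin, label and interaction comparisons. Same-numbered libraries deviated together with a median correlation of 0.0332 over 77 pairs (-0.49 to 0.49), against -0.0147 over 154 differently numbered pairs. The numbers were not taken to pair the libraries, though such values cannot exclude a pairing.

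Leaving out each library in turn, mitochondrial genes lower ranged over 0 to 2 (niacin, wild-type label), 0 to 3 (knockout label) and 1 to 3 (wild-type label), and those higher over 3 to 5 (wild-type label) and 3 to 5 (niacin, knockout label). Members called ranged over 0 to 1 for niacin in stimulated wild-type-labelled cells, and by label over 0 to 1 in stimulated cells, 0 to 6 in stimulated cells with niacin, 0 to 1 in the mean and 0 to 4 in the interaction. Values that turned sign were Mars2 under the knockout label (-0.19 to 0.18, and -0.033 to 0.24 with niacin), Cars2 with niacin under the knockout label (-0.0073 to 0.14), Rars2 under the wild-type label (-0.092 to 0.14, and -0.082 to 0.10 with niacin), Wars with niacin under the wild-type label (-0.053 to 0.42) and Yars2 by label in unstimulated cells (-0.10 to 1.01). Calls with stimulation were lost for Eprs, Farsa, Farsb, Lars and Rars with niacin under the knockout label when 1 of the 2 unstimulated libraries was left out (adjusted p up to 0.0804), for Farsb, Lars, Mars2 and Vars2 with niacin under the wild-type label (up to 0.157), and for Cars2, Eprs, Farsb, Hars and Qars under the wild-type label (up to 0.112). The lowest count of a member in a library was 76 reads (Wars2), and how far depth limits the calls was not tested by count level.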
